A study of Rattus norvegicus with 12 samples.

Results

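The endothelin genes were read in right and left atria of male rats with volume overload. The rule took every probe set, a group of short array probes that together measure a transcript, that the array's annotation assigned to Edn1, Edn3, Ednra, Ednrb or Ece1 alone. It found 2 probe sets among the 31042 tested, 1 for Edn1 and 1 for Ece1, so 2 of the 5 genes had values, out of 14217 genes measured in all. Edn3, Ednra and Ednrb were not analysed here.

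The animals were Sprague-Dawley rats of 225 to 275 g, all without a stated genetic change, studied 28 days after surgery. An aorto-caval shunt, an opening between aorta and vena cava that raises venous return and loads the heart with volume, was set against a sham operation. The 4 groups were right atria of sham rats, right atria of shunt rats, left atria of sham rats and left atria of shunt rats, with 3 arrays each. Each array carried RNA of a pool of 2 appendages, so a value is already a mean of tissues and n = 3 counts pools. No age is given in the labels, and nothing says whether a right and a left pool came from the same rats.

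Endothelin-1, the product of Edn1, is a strong constrictor peptide made mainly by endothelial cells and also by cardiac cells. It is cut from its proprotein by furin-type convertases and then released as the active peptide by the endothelin-converting enzyme, the membrane protease encoded by Ece1. The receptor encoded by Ednra couples through Gq proteins to phospholipase C and calcium release in smooth muscle and cardiac muscle, whereas the receptor encoded by Ednrb on endothelium drives nitric oxide and prostacyclin and clears the peptide. Edn3 encodes another peptide of the family, with a high affinity for the receptor encoded by Ednrb.

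The stretches upstream of both genes are shown because Edn1 is a textbook case of a gene set by transcription, through a TATA box and sites for GATA, AP-1 and hypoxia-inducible factors. The sequences are from RefSeq, build GRCr8, cover 150 bases from 250 to 101 bases before the RefSeq start, and are written 5′ to 3′ on the gene's strand. That for Edn1 lies on the minus strand at chr17:22666788-22666937, and that for Ece1 on the plus strand at chr5:155360781-155360930. Capitals mark matches to the motifs named in the next paragraph.
Edn1: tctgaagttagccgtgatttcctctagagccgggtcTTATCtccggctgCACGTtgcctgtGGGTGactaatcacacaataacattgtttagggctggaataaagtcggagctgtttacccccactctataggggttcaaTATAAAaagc
Ece1: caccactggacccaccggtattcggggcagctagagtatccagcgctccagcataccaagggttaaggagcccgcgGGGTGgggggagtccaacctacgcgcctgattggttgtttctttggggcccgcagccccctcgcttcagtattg

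The TATA box was searched as TATAAA on the gene's strand, and the other motifs on both strands. GATA factors were given the letters GATAA and hypoxia-inducible factors the core ACGTG. Kruppel-like factors were given CACCC. The AP-1 site was TGANTCA, where N is any base. The GC box was GGGCGG. No matches in these windows overlapped. In the Edn1 window TATAAA began 110 bases before the start, GATAA matched on the other strand 214 bases before it, ACGTG on the other strand at 201 bases and CACCC on the other strand at 189 bases. The Ece1 window held CACCC alone, on the other strand at 174 bases. TGANTCA and GGGCGG had no match in either window, and an AP-1 site spelled otherwise would not be found by this search. Among 33469 RefSeq promoters, the same window held TATAAA in 4.4%, GATAA in 16.1%, ACGTG in 9.58%, CACCC in 33.1%, GGGCGG in 16.5% and TGANTCA in 3.89%. The Edn1 window was 46.7% G and C and the Ece1 window 62%. Bases nearer the start than 101 were not searched, so neither the matches nor these shares count motifs there. These matches describe letters, and the arrays measured no binding.

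Ece1 was higher in left than in right atria, while neither gene passed the test for shunt against sham. In sham rats Ece1 was 1.92-fold higher on the left (95% confidence interval 1.64 to 2.26), and in shunt rats 1.56-fold (1.33 to 1.84), with n = 3 pools a group. In sham rats each left array of Edn1 lay below each right array, but the difference did not pass the test. Of all probe sets, 50.4% had no overlap between sham chambers. The test was passed by 36.1% between sham and 37.7% between shunt chambers. In bulk tissue, fewer cells of a type and less RNA per cell cannot be told apart.

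Values are deposited log2 levels, on which a difference of 1 is 2-fold. A gene is called where the adjusted p of limma's moderated test is under 0.05, with Benjamini-Hochberg adjustment over all 31042 probe sets. Array medians lay between 5.44 and 5.47. The first principal component held 60.5% of the variance and parted left from right atria. Left shunt replicate 3 stood apart on the second component, at -26.7 against 14.95 and 13.62 for the other left shunt arrays. Of 8 atrial cardiomyocyte markers, the atrial light chain gene Myl7 read 14.06 to 14.27 and the natriuretic peptide gene Nppa, near the top of the scale, 14.37 to 14.43. The potassium channel gene Kcna5 read lower, at 5.18 to 6.51, and was the 1 marker of the 8 called after shunt, lower in the right atrium. The labels' tissue entry names ventricles besides atria, and the 6 ventricular markers averaged 7.52 to 7.67 in right sham, 7.97 to 8.92 in right shunt, 5.83 to 6.11 in left sham and 6.33 to 6.69 in left shunt arrays.

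**Figure D1:**
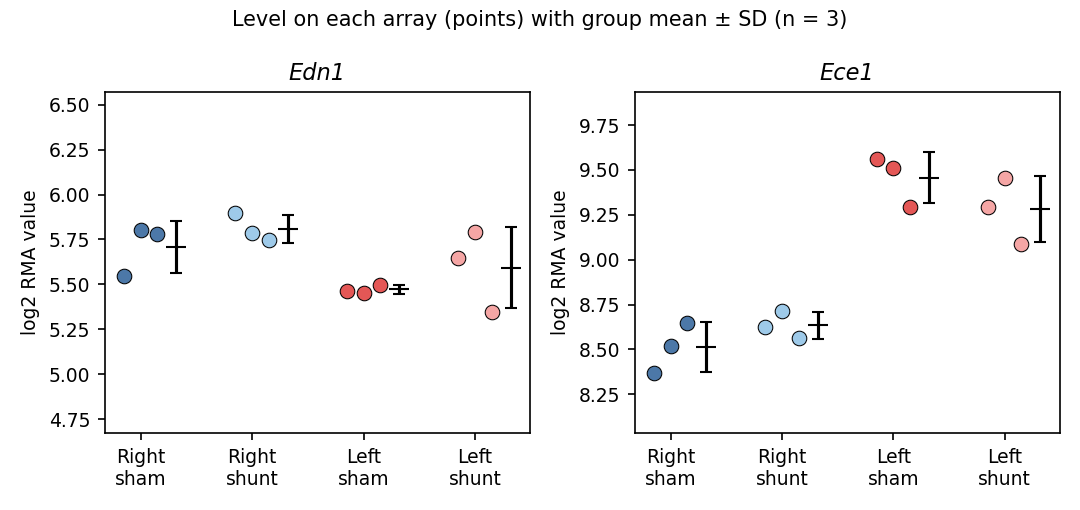
Deposited log2 level of Edn1 (left panel) and Ece1 (right panel) on each of the 12 arrays, by group; points are arrays, and the bars beside them the group mean with 1 SD. The 6 left arrays of Ece1 sit between 9.09 and 9.56, all above the 6 right arrays at 8.37 to 8.71.

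Ece1, the converting enzyme, had log2 levels of 8.37, 8.52 and 8.65 in right sham atria (mean 8.51 ± 0.14, SD, n = 3). Right shunt atria read 8.63, 8.71 and 8.57 (8.64 ± 0.075). Left sham atria read 9.56, 9.51 and 9.30 (9.46 ± 0.14), and left shunt atria 9.30, 9.46 and 9.09 (9.28 ± 0.18). Each left array was above each right array, with left shunt replicate 3 the lowest of the left atria and right shunt replicate 2 the highest of the right. Of all probe sets, 50.4% had no overlap between sham chambers and 48.9% none between shunt chambers. On its array the probe set ranked between the 86.3 and the 94th percentile of all probe sets. The group means ran from left sham through left shunt and right shunt to right sham, and of these neighbours left shunt and right shunt alone differed past the threshold.

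Edn1, the ligand, had log2 levels of 5.54, 5.80 and 5.78 in right sham atria (5.71 ± 0.14, SD, n = 3) and 5.90, 5.78 and 5.75 in right shunt atria (5.81 ± 0.079). Left sham atria read 5.46, 5.45 and 5.50 (5.47 ± 0.023), and left shunt atria 5.64, 5.79 and 5.35 (5.59 ± 0.23). The right sham and right shunt arrays overlapped, and the left shunt arrays spread over the whole left sham range and into that of both right groups. Left shunt replicate 3 was the lowest of the 12 arrays and right shunt replicate 1 the highest. The probe set ranked between the 48.2 and 55.6 percentile of its array, near the middle of all probe sets, and the deposited values hold no detection call, so whether this level lies above background was not tested. From highest to lowest the means ran right shunt, right sham, left shunt, left sham. Right shunt and right sham did not differ past the threshold, nor did left shunt and left sham, and right sham was not compared with left shunt.

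The comparison of shunt with sham, which asks what volume overload did to these transcripts, called neither gene in either atrium. In the right atrium 2.97% of all probe sets were called (1.9% higher, 1.07% lower in shunt), and 0 of the 2 endothelin probe sets were, nor did either have an unadjusted p under 0.05. Edn1 differed there by 0.10 ± 0.11 (log2, SE; adjusted p = 0.662), a ratio of shunt to sham between 0.912 and 1.26 at 95% confidence. Ece1 differed by 0.12 ± 0.11 (adjusted p = 0.581), a ratio between 0.926 and 1.28. In the left atrium 0.751% of probe sets were called (0.283% higher, 0.467% lower), with 0 of the 2 members among them by either the adjusted or the unadjusted p. Edn1 differed by 0.12 ± 0.11 (adjusted p = 0.672; ratio 0.925 to 1.28) and Ece1 by -0.18 ± 0.11 (adjusted p = 0.515; ratio 0.753 to 1.04). At 95% confidence a rise of at most 1.28-fold in either gene, and a fall of Ece1 in the left atrium of at most 1.33-fold, lies within these intervals.

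Sham and shunt arrays of either gene overlapped in both atria, where 28.4% of all probe sets in the right atrium and 16.9% in the left had no overlap. Averaged over both atria, where 3.86% of probe sets were called (2.31% higher, 1.55% lower), Edn1 differed by 0.11 ± 0.076 (adjusted p = 0.495) and Ece1 by -0.026 ± 0.076 (adjusted p = 0.901), with 0 of 2 called and none at an unadjusted p under 0.05. Ece1 had a positive shunt difference on the right and a negative one on the left. The left effect minus the right effect was -0.30 ± 0.15 (95% interval -0.63 to 0.032; adjusted p = 0.389), so the interaction was not called, and for Edn1 it was 0.021 ± 0.15 (-0.31 to 0.35; adjusted p = 0.964). Over all probe sets that interaction was called for 0.0258% (0.0226% higher, 0.00322% lower).

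**Figure D2:**
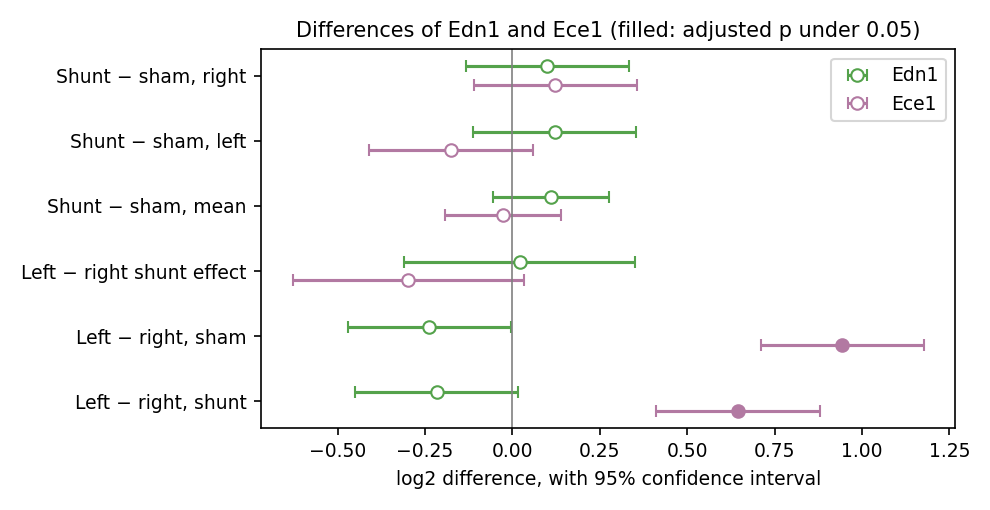
Log2 difference of Edn1 and Ece1 in each comparison, with the 95% confidence interval of the limma fit on the horizontal axis; filled points passed an adjusted p of 0.05. Ece1 passed in left minus right among sham (0.94) and among shunt atria (0.65), and the other 10 intervals belong to differences that were not called.

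Right and left atria were then compared within each operation. Among sham atria 36.1% of probe sets were called (20.1% higher and 16.1% lower on the left), and 1 of the 2 endothelin probe sets was. Ece1 was higher on the left by 0.94 ± 0.11 (log2, SE; adjusted p = 3.31e-05). Its p-value ranked 959 among the 31042, and 4% of probe sets had a larger absolute difference. Among shunt atria 37.7% were called (20.2% higher, 17.4% lower), again 1 of 2 members. Ece1 was higher by 0.65 ± 0.11 (adjusted p = 0.000641), ranked 2480 by p-value, and 8.24% of probe sets had a larger absolute difference. With more than 1 in 3 probe sets called, a call for 1 of 2 members is near the background share.

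Edn1 ran the other way: the left minus right difference was -0.24 ± 0.11 in sham atria (95% interval -0.47 to -0.0033; unadjusted p = 0.0473, adjusted p = 0.105) and -0.22 ± 0.11 in shunt atria (-0.45 to 0.018; adjusted p = 0.134). Neither was called. In sham rats the 3 left arrays lay below the 3 right arrays, as 50.4% of all probe sets had no overlap between the chambers there. In shunt rats, where 48.9% had none, left shunt replicate 2 reached into the right range. The sham difference passed without left shunt replicate 3 (-0.24, adjusted p = 0.0399) and the shunt difference without left shunt replicate 2 (-0.31, adjusted p = 0.0437). The chamber and shunt comparisons use the same 12 arrays and are not independent of each other.

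Signs of RNA quality moved with the chamber and, in the right atrium, with the operation. The 3′ minus 5′ log2 difference of the actin control probe sets, which grows as RNA is degraded or copied less fully, was 1.58 to 2.03 on right arrays and 1.14 to 1.39 on left arrays, and that of GAPDH 0.317 to 0.398 against 0.176 to 0.284. Within the right atrium the actin difference was 1.91 to 2.03 in shunt and 1.58 to 1.82 in sham arrays, with no overlap, while the GAPDH ranges overlapped. Their part in the Ece1 difference was not tested. Nor was it tested for the right atrial shunt calls further on (Ptgis, Agt, Ace, Tgfb1, cardiomyocyte genes, and macrophage, pericyte and endothelial markers). Ece1 has a single probe set, so no other one can be set beside it. Of 4525 genes with several probe sets, 3142 had a call between sham chambers, and 358 of those (11.4%) had probe sets called in opposite directions.

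The 3 genes that followed Ece1 most closely were found by the root mean square difference from Ece1 over the 12 arrays after each gene was centred on its own mean, out of 14216 genes compared. They were Capn1 (0.0772), which encodes the catalytic subunit of the protease calpain-1, Edem3 (0.0963), which encodes a mannosidase-like protein of glycoprotein quality control, and Ap1b1 (0.0989), which encodes a subunit of the AP-1 clathrin adaptor at the trans-Golgi. Capn1 read 7.58 to 7.81 in left sham and 6.81 to 6.96 in right sham atria. Edem3 was dim, at 2.96 to 4.12 over all arrays. Since they were picked for their likeness to Ece1 on these arrays, their differences are a description that follows from the choice. Left minus right in sham atria was 0.82 for Capn1, 0.80 for Edem3 and 0.86 for Ap1b1, and in shunt atria 0.58, 0.55 and 0.61. The 4 group means of Edn1 spanned 0.34, under the 0.5 required for such a search.

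**Figure D3:**
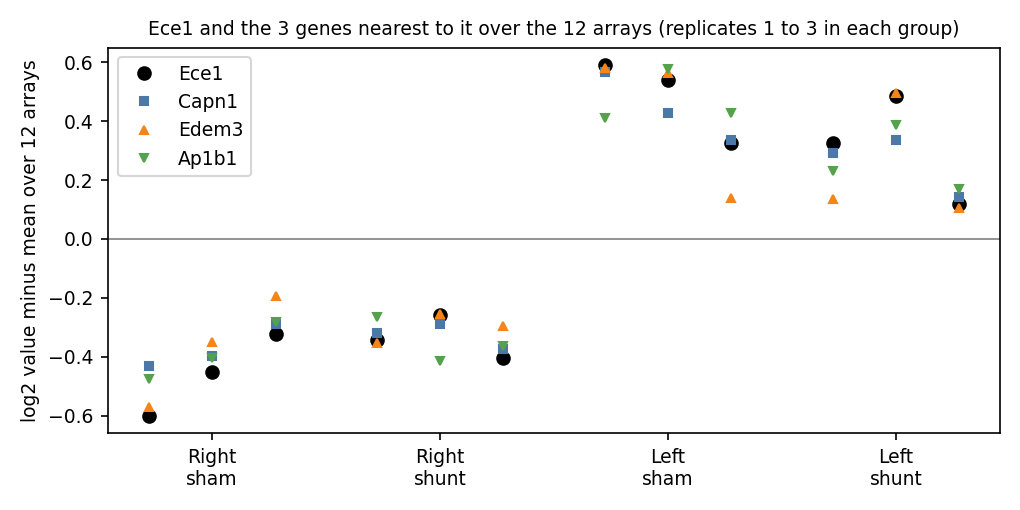
Log2 level of Ece1, Capn1, Edem3 and Ap1b1 on each of the 12 arrays, each gene centred on its own mean over them, with arrays in groups along the horizontal axis. All right arrays lie below 0 and all left arrays above 0 for the 4 genes.

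Other genes that make, cut and degrade endothelins formed a list of 11, all measured. Of these, 0 were called for shunt against sham in either atrium (4 had an unadjusted p under 0.05 in the right and 3 in the left). The share called over all probe sets was 2.97% in the right and 0.751% in the left atrium. Between sham chambers 2 were higher on the left and none lower: Edn2, another endothelin ligand (4.77, 4.92 and 4.67 on the left, 4.34, 4.54 and 4.45 on the right; difference 0.34 ± 0.10, adjusted p = 0.0207), and Furin, a convertase of the proprotein (7.67, 7.49 and 7.68 against 7.11, 7.31 and 7.24; 0.40 ± 0.085, adjusted p = 0.00288). For both, every left sham array was above every right sham array. Between sham chambers 36.1% of all probe sets were called and 50.4% had no overlap, in either direction. The list's median difference was 0.12, beside 0.023 over all probe sets. The count fell to 1, with Edn2 lost, without right sham replicate 1 or left sham replicate 2, and rose to 4 without right sham replicate 3.

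Between shunt chambers 3 of these 11 genes were higher on the left and 2 lower, where 37.7% of all probe sets were called. The higher ones were Furin (0.31, adjusted p = 0.0134), Ctsa, the lysosomal cathepsin A (0.21, adjusted p = 0.041, lost in 11 of 22 alternatives), and Ece2, a related converting enzyme (0.47, adjusted p = 0.00561), whose other probe set differed by 0.08. Cma1, the mast cell chymase that can also cut the endothelin precursor, was lower (-0.37, adjusted p = 0.013). It is itself 1 of 6 mast cell markers, of which 3 were lower and 1 higher there, with summed linear levels of 211.8 to 229.9 on the right and 182.4 to 202.4 on the left. Pcsk5, a convertase, was lower by its brightest probe set (-0.34, adjusted p = 0.0082), and another of its probe sets was called higher (0.41), so its direction is not settled. Without left shunt replicate 2 the count was 3, and Furin was no longer called.

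Genes of the Gq relay carry the signal of the receptors inside the cell, and 23 of 27 had a value. Shunt against sham called 0 of 23 in the right atrium (1 with an unadjusted p under 0.05), beside 2.97% of all probe sets. In the left atrium, where 0.751% of all probe sets were called, it called 1, Rgs3, which speeds the shut-off of Gq and Gi proteins. Rgs3 read 8.14, 8.17 and 8.07 in left shunt and 7.81, 7.76 and 7.74 in left sham atria, 0.36 ± 0.069 higher (adjusted p = 0.0364). These arrays did not overlap, as in 16.9% of all probe sets. Other Rgs3 probe sets differed by 0.17 and 0.066 and were not called (adjusted p = 0.535 and 0.79). The 1 call was lost, to a count of 0, without any 1 array of left sham or right sham, without left shunt replicate 1 or 2, and without right shunt replicate 2 or 3.

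Between sham chambers the relay had 2 genes higher and 3 lower on the left, where 36.1% of all probe sets were called. Gnaq, the Gq alpha subunit, was higher by 0.43 and Grk2, a kinase that desensitises receptors, by 0.48. Prkce, protein kinase C epsilon, was lower by the most: 7.05, 7.17 and 7.12 in left sham against 8.56, 8.12 and 8.31 in right sham atria, a difference of -1.22 ± 0.16 (adjusted p = 8.15e-05). Itpr1, a calcium release channel, differed by -0.45, and Prkcb, protein kinase C beta, by -0.96, though its other probe sets were not called. The median over the 23 was -0.040, and the count rose to 8 without left shunt replicate 3. In shunt atria, where 37.7% of all probe sets were called, 3 were higher and 4 lower. The higher ones were Gnaq (0.46), Grk2 (0.46) and the phospholipase C gene Plcb2 (0.31). Those lower were Prkce (-1.21), Itpr1 (-0.43), Plcb1, another phospholipase C gene (-0.63), and Prkcb (-0.82). Another Prkcb probe set was called higher there (0.32, adjusted p = 0.0219), so its direction is not settled.

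The vasodilator arm, reached through the endothelial receptor, had 7 of 9 genes measured. Of all probe sets, 36.1% were called between sham chambers, where 50.4% had no overlap, and 37.7% between shunt chambers. In sham rats Nos3, the endothelial nitric oxide synthase, read 6.92, 7.14 and 7.12 in left and 5.65, 5.99 and 6.08 in right atria, higher by 1.16 ± 0.16 (adjusted p = 0.000145) with no overlap. Ptgis, the prostacyclin synthase, was higher by 0.59 (adjusted p = 0.000611), and Ptgs1, a cyclooxygenase that feeds it, was lower (-0.64, adjusted p = 0.00101). In shunt rats Nos3 (0.76) and Ptgis (0.53) were again called higher on the left, and Ptgs1 (-1.04) and Gucy1b1, a subunit of the nitric oxide receptor (-0.45), lower.

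For shunt against sham, 1 of the 7 vasodilator genes was called higher in the right atrium and none in the left (5 and 2 had an unadjusted p under 0.05). Of all probe sets, 2.97% and 0.751% were called, and 28.4% and 16.9% had no overlap. Ptgis read 9.94, 9.93 and 9.75 in right shunt against 9.34, 9.37 and 9.30 in right sham atria, 0.54 ± 0.10 higher (adjusted p = 0.018) with no overlap. In the left atrium it read 10.49, 10.56 and 10.15 against 9.95, 9.97 and 9.86, also with no overlap. It was 0.48 higher there (adjusted p = 0.0522) and did not pass. The left effect minus the right effect was -0.059 (adjusted p = 0.874), so the interaction was not called. Over both atria together, where 3.86% of all probe sets were called, Ptgis was 0.51 higher (adjusted p = 0.00233). By the brightest probe sets it was the 1 call of the 7, a count that became 4 without left shunt replicate 3. Another probe set of Gucy1a1, the other subunit of the nitric oxide receptor, was called lower over both atria (-0.29, adjusted p = 0.0125). The right atrial call for Ptgis was lost, to a count of 0, without right shunt replicate 1 or 2 or any 1 of the right sham arrays.

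**Figure D4:**
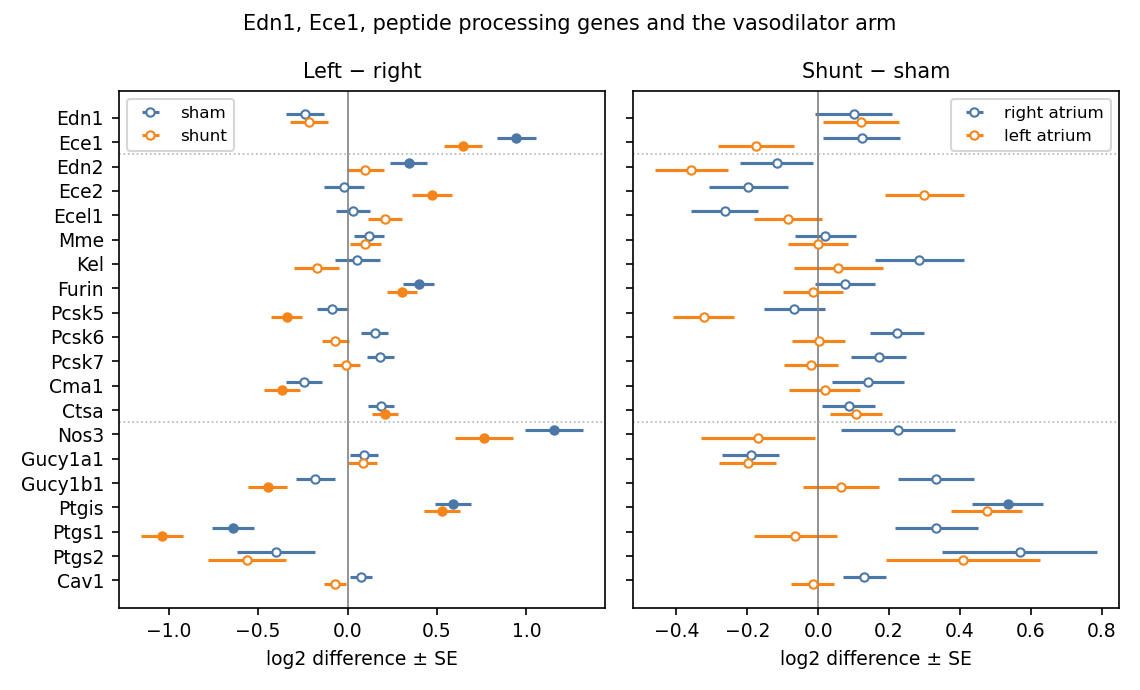
Log2 difference ± SE of Edn1, Ece1, the 11 peptide processing genes and the 7 vasodilator genes, as left minus right (left panel, sham and shunt atria) and as shunt minus sham (right panel, right and left atria, on its own scale); filled points passed an adjusted p of 0.05. On the left the calls run from Ptgs1 (-1.04 in shunt) to Nos3 (1.16 in sham), and on the right Ptgis in the right atrium (0.54) is the 1 call.

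The known regulators of Edn1 transcription, 19 of 19 measured, differed between sham chambers in 14 cases, 11 higher and 3 lower on the left. Klf2, a flow-induced factor that lowers Edn1 in endothelium, read 10.21, 10.03 and 10.06 in left and 9.24, 9.07 and 9.23 in right sham atria (0.92 ± 0.13, adjusted p = 0.000145). Tgfb1, a cytokine that raises Edn1, was higher by 0.93 ± 0.13, and the cardiac activator Gata4 by 0.66 ± 0.11. The other genes higher on the left were Jun (1.12), Gata2 (0.49), Tgfb2 (0.44), Klf15 (0.40), Klf4 (0.40), Ace (0.36), Gata6 (0.36) and Smad2 (0.25), the last lost in 12 of 22 alternatives. Those lower were Agt, the angiotensin precursor (-1.10), Ets1 (-0.35) and Hif1a (-0.24). The median was 0.36, beside 0.023 over all probe sets, of which 36.1% were called between sham and 37.7% between shunt chambers. Between shunt chambers 3 were higher (Gata4 0.57, Tgfb1 0.52, Klf2 0.50) and 2 lower (Ets1 -0.48, Hif1a -0.27), and without left shunt replicate 3 that count of 5 became 8.

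For shunt against sham, 3 of the 19 regulators were called in the right atrium and 0 in the left (9 and 6 had an unadjusted p under 0.05). Of all probe sets, 2.97% and 0.751% were called, and 28.4% had no overlap in the right atrium. Agt read 6.31, 5.89 and 6.19 in right shunt against 7.14, 6.85 and 7.15 in right sham atria, a fall with no overlap (-0.92 ± 0.16, adjusted p = 0.0137). Ace, the angiotensin-converting enzyme, rose by 0.49 (adjusted p = 0.0215), and Tgfb1 by 0.55 (adjusted p = 0.0431). Another Ace probe set was not called (0.32, adjusted p = 0.242). Tgfb2 was not called by its brightest probe set, but another of its probe sets was called higher (0.56, adjusted p = 0.00955). The Tgfb1 call was lost in 13 of 22 alternatives, among them those without any 1 right array, any 1 left sham array or left shunt replicate 2. The count was 6 without left shunt replicate 3, 1 without right shunt replicate 1 or right sham replicate 2 or 3, and 0 without right shunt replicate 2 or right sham replicate 1. Over both atria Ace (0.42) and Ets1 (0.33) were higher and Agt (-0.57) lower, a count of 3 that became 6 without left shunt replicate 3. The share called over all probe sets was 3.86%. That count rests on the brightest probe sets: another of Tgfb2 was called higher (0.37, adjusted p = 0.00765), and another of Ace was not called (0.18, adjusted p = 0.393). The call for Ets1 was lost in 10 of 21 alternatives.

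Downstream, 9 of 10 genes known to rise in cardiomyocytes treated with endothelin were measured, and these also rise under stretch and other hypertrophic stimuli. Like the other lists, this one was chosen with earlier results of these data known. Its counts beside the shares of all probe sets are therefore a description and no test of an endothelin response. In the right atrium 7 of 9 were called higher after shunt and none lower, with a median of 0.46. Over all probe sets the median was -0.0028, and 2.97% were called. Acta1, the skeletal actin of the fetal programme, read 11.68, 11.68 and 11.76 in right shunt against 9.86, 10.44 and 10.05 in right sham atria (1.59), and Myh7, the slow myosin heavy chain, rose by 1.48. Ccn2, a matricellular growth factor, rose by 0.98, Rcan1, a target of calcineurin, by 0.46, Nppb, the brain natriuretic peptide gene, by 0.42 and Ankrd1, a stretch-responsive cofactor, by 0.29. Myl2, the ventricular light chain, rose by 1.42 at its brightest probe set, while another of its probe sets was called lower (-0.55). In the left atrium 4 of 9 were called higher and none lower, where 0.751% of all probe sets were called. The 4 were Myh7 (1.44), Acta1 (1.11), Ccn2 (0.92) and Nppb (0.60), but 0 of 9 were called with the left arrays fitted alone. Egr1, another of the 9, differed by -0.60 in the left atrium and was not called (adjusted p = 0.381). Nppa, near the top of the scale, was called in neither atrium. The right count was 3 or 4 without any 1 right array, and 2 with right shunt replicate 1 as the sole array of its group. Myh7 and Myl2 are also ventricular markers, whose levels were uneven as given above. Right shunt replicates 2 and 3 read above replicate 1 for Myl2 (12.83 and 12.82 against 11.45) and Myl3 (12.05 and 11.92 against 10.78). Irx4 read 5.86 and 5.94 against 4.18, and the other ventricular markers were also higher there, by less. The part of this in the right atrial shunt calls was not tested.

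Markers of other cells, some of which carry the endothelin system, were read against the 36.1% of all probe sets called between sham chambers and the 37.7% between shunt chambers. Of 10 endothelial markers measured, 6 were higher and 1 lower (Kdr, -0.79) on the left among sham atria, with a median of 0.30. Among the higher ones was Erg, another probe set of which was called lower (-0.40). Their summed linear level was 4302 to 4489 in right sham, 4608 to 4659 in left sham, 4838 to 5316 in right shunt and 4469 to 4884 in left shunt arrays. That count of 7 was 4 without right sham replicate 2 or left sham replicate 1. Among shunt atria 2 were higher and 3 lower. Of 7 smooth muscle markers, 4 were higher and 1 lower on the left among sham atria, with summed levels of 1526 to 1661 in right sham and 2110 to 2196 in left sham arrays, and of 4 endocardial markers 2 were higher (479.6 to 513.9 against 663.1 to 691.6). Macrophage markers went the other way, with 3 of 8 lower and 0 higher on the left in sham and 5 of 8 lower and 0 higher in shunt rats. None of the 8 atrial cardiomyocyte markers were called between chambers in sham or in shunt rats. After shunt, 3 of 8 macrophage markers and 3 of 6 pericyte markers rose in the right atrium and none were called lower (the pericyte marker Notch3 differed by -0.42, adjusted p = 0.076), and the summed macrophage level was 1944 to 1968 in right sham against 2779 to 3131 in right shunt arrays. The share of all probe sets called for shunt against sham was 2.97% in the right and 0.751% in the left atrium. Of the 10 endothelial markers, 1 was called higher in the right atrium and 0 lower, with a median of 0.20. It was Esam (0.37, adjusted p = 0.0341), lost in 9 of 22 alternatives. Of the 10, 5 had an unadjusted p under 0.05 there. In the left atrium 0 were called. The part of these cell types in the values of Ece1, Edn1 and the pathway genes was not tested.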

How the data were processed

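Gene expression was measured on 1-colour Affymetrix arrays. The authors deposited log2 values per probe set. The submitters' processing notes name RMA, whose version is not given in the sources used here. RMA corrects background, quantile-normalizes arrays and summarises probes, so a change shared by most transcripts is not visible. Groups and replicate numbers came from the sample titles.

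Of 31099 probe sets, 57 controls were left out and no other filter was set. The annotation named 1 gene for 20826 probe sets, several for 436 and none for 9780. Where a gene had several, the brightest over the 12 arrays stood for it. With limma 3.58.1 in R 4.3.3 (lmFit, contrasts.fit, eBayes), the means of the 4 groups were estimated jointly from the 12 arrays and contrasted, two-sided, with Benjamini-Hochberg adjustment over 31042 probe sets. The precision is limited by 3 arrays a group. Data were simulated for the right atrium comparison over 31042 probe sets, of which few were changed. The fit called 62.7% of 67 probe sets given a log2 change of 0.5, 97% of 67 at a change of 1 and 100% of 66 at a change of 2. Rates with a larger share of probe sets changed were not simulated.

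The members and lists were chosen with earlier results of these data known. All members were described. Pathway list genes past the threshold were named, with at most 4 others per list, and the 3 genes nearest to a member whose group means spanned at least 0.5. Cell type markers were given mainly as counts, for some of the cell types read, and few of them were named. Alternatives covered scaling, filters, probe set choice, variance models, a replicate block and each array left out.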

Additional observations from a re-analysis of the deposited data

How the results depend on the processing

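Over 22 alternatives (21 for the averaged effect and the interaction), Ece1 was called higher on the left in each: 0.87 to 1.02 in sham atria and 0.56 to 0.74 in shunt atria, with the highest adjusted p at 0.000277 and 0.0255. The shunt effects of Edn1 and Ece1 and their interactions were called in none. The sign of Edn1's interaction changed in 7 and that of Ece1's averaged effect in 3. The count of endothelin probe sets called between sham chambers, 1, became 2 with array weights (Edn1 -0.26, adjusted p = 0.041) and ranged from 1 to 2 with 1 array left out, as did the count between shunt chambers. Edn1's adjusted p ranged from 0.0399 to 0.274 in sham and from 0.0437 to 0.472 in shunt atria. Pcsk5 turned in the shunt atria to 0.089 (adjusted p = 0.426) where its probe sets were averaged, which mixes probe sets of opposite sign.

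With the replicate number as a block, 1 endothelin probe set was called between sham and 1 between shunt chambers (Ece1, adjusted p = 8.67e-05 and 0.00103). The block also ended the calls for Tgfb1 and Rgs3 after shunt (right and left atrium, adjusted p = 0.057 and 0.0507), Smad2 between sham chambers (0.0707) and Ctsa between shunt chambers (0.0601). Only right and left pools of the same operation could share rats. Their same-numbered deviations correlated at 0.134, 0.143 and 0.0946 in shunt and 0.0974, 0.148 and 0.0789 in sham, and 9 of 12 arrays correlated best with one of their own number. All of these correlations were positive, though not every one exceeded 0.1. No label ties the numbers to rats, so they were not taken as pairing the samples. The block joins same-numbered sham and shunt arrays as well, so a pairing of right and left pools within each operation was not tested.

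Some of the list counts that moved by over 1.5 times are given here. Counts of the endothelial markers and of the genes known to rise with endothelin also moved by that much, and not all of those are given. For shunt against sham in the right atrium, regulators went from 3 to 6 (groups compared alone, array weights), 5 (trended robust variance, 1 probe set per gene, averaged probe sets) or 0 (right shunt replicate 1 alone), and vasodilator genes from 1 to 3 (groups alone) or 0 (right shunt replicate 1 alone). In the left atrium the Gq count of 1 became 0 with the groups alone, the block, averaged probe sets or right shunt replicate 1 alone. There the vasodilator count of 0 became 1 under 7 settings other than single exclusions, and that of regulators 1 with trended robust variance. Between sham chambers the Gq count of 5 became 8 with array weights and the vasodilator count of 3 became 6 with averaged probe sets. Between shunt chambers the regulator count of 5 became 9 (array weights, averaged probe sets) or 0 (right shunt replicate 1 alone). Averaged over both atria, the regulator count of 3 became 5 (dim probe sets left out, 1 probe set per gene, averaged probe sets), 6 (array weights) or 1 (right shunt replicate 1 alone). The vasodilator count of 1 became 2 (trended robust variance, 1 probe set per gene, averaged probe sets) or 3 (array weights). The Gq count of 1 became 3 (array weights), 2 (averaged probe sets) or 0 (right shunt replicate 1 alone), and 4 without left shunt replicate 3. Between shunt chambers, right shunt replicate 1 alone also lowered processing genes from 5 to 2, Gq genes from 7 to 4 and vasodilator genes from 4 to 1. The causes were not tested.

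Limits: 3 pools a group, and 1 probe set each for Edn1 and Ece1.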
